A study of Ovis aries with 12 samples.

Results

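The genes described here encode ubiquitin-conjugating enzymes (symbols starting with UBE2) and deubiquitinating enzymes (symbols starting with UCHL, OTUD or OTUB, or with USP and a digit). They were taken by symbol from the array's annotation. In all 60 of the 9155 genes with a single symbol belonged to them, 26 conjugating and 34 deubiquitinating. They carried 84 probe sets, and each gene is represented by its brightest. RNA came from longissimus dorsi, the long loin muscle, of 12 lambs, each read on 1 bovine expression array. Callipyge lambs (+/CLPG, 1 copy of the overgrowth mutation) and normal lambs (wild-type, +/+) were sampled at 10, 20 and 30 days of age, with 2 lambs in each of the 6 groups. All nursed their dams until shortly before death. Labels call the 2 lambs of a group biological replicates.

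Ubiquitin is a small protein that is joined to other proteins to mark them for the proteasome or to change their place or activity. An activating enzyme (E1) loads it, a conjugating enzyme (E2) carries it, and a ligase (E3) chooses the target. Deubiquitinating enzymes cut it off again, so the classes work in opposite directions. In skeletal muscle this system breaks down myofibrillar proteins, and it is best known there for its part in wasting.

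Values are log2 of the scaled array intensity plus 16, and a difference between groups is a difference of such values, which understates the change of dim genes. A probe set was tested when its mean lay at or above 5.25, the median of all 24016. Of the conjugating genes 25 of 26 were tested, and of the deubiquitinating genes 30 of 34. UBE2E2, USP4, USP20, USP37 and USP50 were too dim, with single-lamb values between 4.05 and 5.74. Brightness differs between probes and is not compared between genes here. With no filter these 5 genes gave genotype differences of -0.06 to 0.18, and their smallest adjusted p was 0.697 (limma).

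The arrays had trimmed mean signals of 55.7 to 105.7 before scaling and correlated with each other at r = 0.941 to 0.969 across probe sets, which are not independent. DLK1, the paternally expressed gene of the callipyge region, was at 10.45 to 11.17 in callipyge and 7.67 to 9.05 in normal lambs, so that the groups lay as labelled. The skeletal muscle markers CKM (mean 13.50) and ACTA1 (12.92) were bright. The 30 day replicate 2 arrays of both genotypes had the lowest mean correlations with the others, 0.953 in callipyge and 0.951 in normal. As a measure of RNA quality, the 3' minus 5' difference of GAPDH was 0.24 to 0.37 in callipyge and 0.28 to 0.53 in normal lambs. Its part in the results below was not tested.

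Between callipyge and normal muscle, averaged over the ages, 1 gene of each class rose and none fell. These were UBE2K in the conjugating class and UCHL1 in the deubiquitinating class. That makes 2 of 55 tested members (3.64%) at an adjusted p under 0.05 in limma, against a background of 0.883% of all 12008 probe sets (0.566% higher and 0.316% lower). Over the brightest probe set of each of 6346 tested genes, chosen as for the members, 0.977% were called. Of these genes 12.7% had an unadjusted p under 0.05 in limma. At an unadjusted p under 0.05, 5 of 25 conjugating and 7 of 30 deubiquitinating genes passed, 12 of 55 or 21.8%, against 11.8% of all probe sets. With 1 array left out this count ran from 5 to 15, and it was 5 without callipyge 10 day replicate 1 and 6 without callipyge 20 day replicate 2. All 12 of the full set lay higher in callipyge muscle, whereas over all probe sets 698 lay higher and 714 lower. This direction depended on scaling. Without scaling of the arrays the median of all probe sets moved from -0.01 to -0.19, and 8 members passed that level, 3 above 0 and 5 below.

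**Figure D1:**
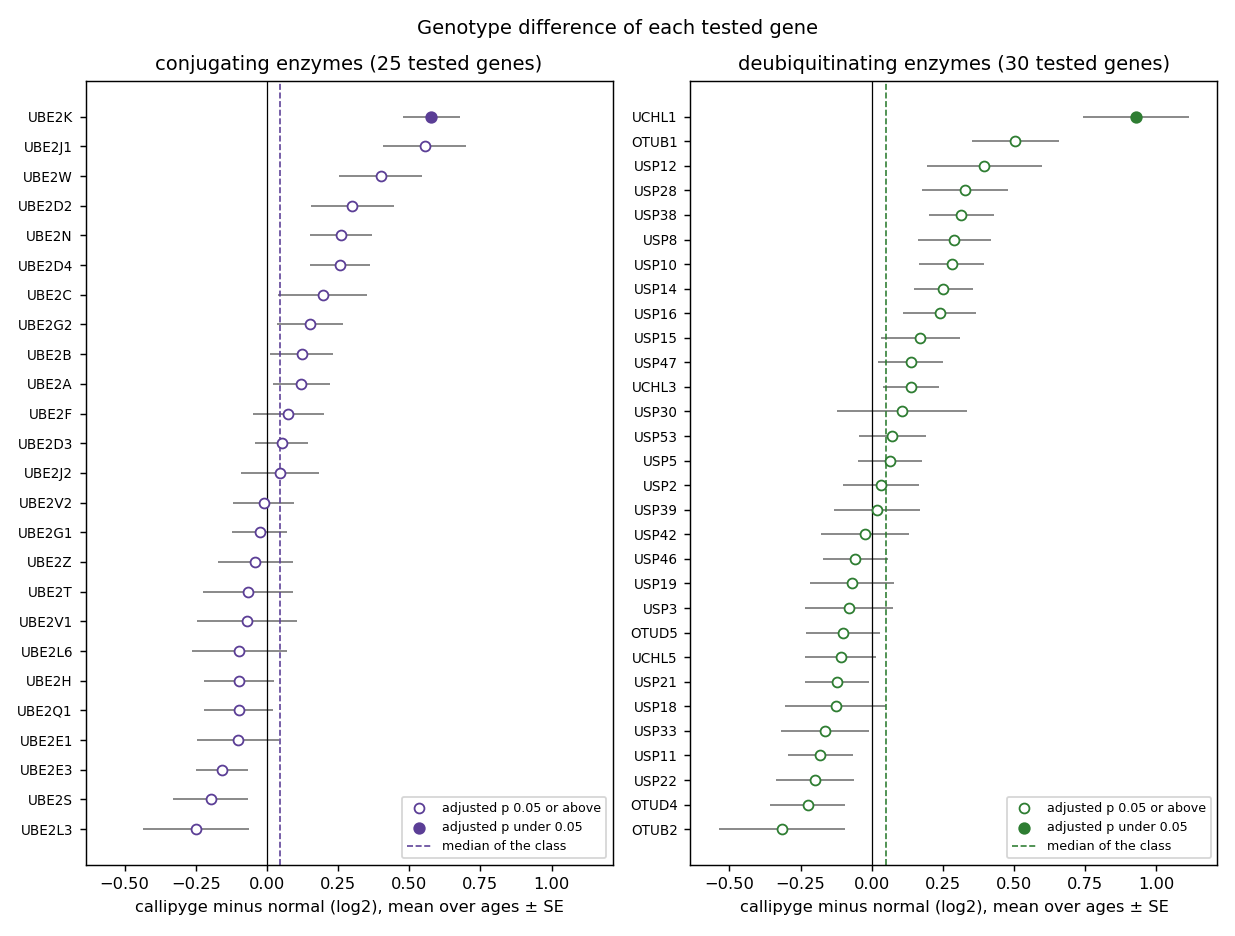
Difference between callipyge and normal lambs on the log2 scale, averaged over ages, for each tested conjugating gene (left) and deubiquitinating gene (right). Points are estimates, bars are the standard error, filled points have an adjusted p under 0.05 in limma, and dashed lines mark the class medians of 0.05 on both sides. UBE2K at 0.58 and UCHL1 at 0.93 lead their classes.

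UBE2K, an E2 that builds ubiquitin chains of the kind recognised by the proteasome, rose 1.49-fold in callipyge muscle (log2 0.58 ± 0.10 SE, 6 lambs against 6, adjusted p = 0.0192 in limma). At 10 days its callipyge lambs read 9.20 and 9.40 and its normal lambs 8.57 and 8.38. At 20 days the readings were 8.996 and 8.87 in callipyge and 8.52 and 8.59 in normal lambs. At 30 days they were 8.92 and 9.06 against 8.38 and 8.54. The lowest callipyge lamb thus stood above the highest normal lamb at every age, and the groups of 6 did not overlap, which was so for 1.03% of all tested probe sets. The spread between lambs of a group was 0.11 (residual SD), the smallest of the 55 members. Differences at single ages were 0.82 ± 0.17 at 10 days, 0.38 ± 0.17 at 20 days and 0.53 ± 0.17 at 30 days, and none passed by itself (adjusted p = 0.124, 0.806 and 0.520 in limma). The interaction with age had an adjusted p of 0.992 in limma.

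This call was near the threshold. Leaving out 1 array gave estimates of 0.54 to 0.61, but the adjusted p in limma moved above 0.05 without any of 7 arrays. Among callipyge lambs, dropping replicate 2 of 10 days gave 0.0646, dropping replicate 1 or 2 of 20 days gave 0.0714 or 0.0560, and dropping replicate 2 of 30 days gave 0.0550. Among normal lambs, dropping replicate 2 of 10 days gave 0.0682, and dropping replicate 1 or 2 of 20 days gave 0.0614 or 0.0507. Without scaling the difference was 0.36 (adjusted p = 0.309), where the median of all probe sets was -0.19. The adjusted p was 0.101 with ordinary least squares and 0.0635 when the replicate 2 arrays of 30 days were dropped.

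UCHL1, a ubiquitin hydrolase abundant in neurons, rose 1.90-fold (log2 0.93 ± 0.19 SE, 6 lambs against 6, adjusted p = 0.0362 in limma). What the mean over ages hides is its course. At 10 days callipyge lambs read 5.79 and 6.17 and normal lambs 5.48 and 5.77. At 20 days they read 6.23 and 6.04 against 5.14 and 6.23, so that replicate 2 of the normal lambs matched the higher callipyge lamb. At 30 days callipyge lambs read 6.53 and 6.94 and normal lambs 4.60 and 4.91. In scaled intensity the last comparison was 76.7 and 106.5 against 8.31 and 13.99, where the normal lambs were close to the bottom of the scale. The genotype difference was 0.36 ± 0.32 at 10 days, 0.45 ± 0.32 at 20 days and 1.98 ± 0.32 at 30 days (adjusted p = 0.843, 0.917 and 0.0580 in limma). From 10 to 30 days the level moved by 0.75 in callipyge and by -0.87 in normal lambs. The interaction of genotype and age was not called (adjusted p = 0.992 in limma).

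The UCHL1 call ended when any of 10 arrays was left out. Among callipyge lambs, dropping replicate 1 or 2 gave an adjusted p in limma of 0.0726 or 0.105 at 10 days and 0.108 or 0.0856 at 20 days, and dropping replicate 2 of 30 days gave 0.116. Among normal lambs, dropping replicate 1 or 2 gave 0.0976 or 0.0752 at 10 days and 0.0759 or 0.0532 at 30 days, and dropping replicate 1 of 20 days gave 0.0736. Ordinary least squares gave 0.235, no brightness filter 0.109, and dropping the replicate 2 arrays of 30 days 0.135. The difference was 1.37 with a pseudocount of 1 and 0.49 with one of 64.

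Because UCHL1 is also a marker of nerve, the other nerve and Schwann cell markers were read beside it. Of 9 on the array 4 were bright enough to test, and 0 were called for genotype, with 1 above 0 and differences of -0.21 to 0.27. The summed level of all 9 ran from 7.79 to 8.24 in callipyge and from 7.82 to 8.36 in normal lambs (log2 of the summed intensity). At 30 days the sums were 7.97 and 8.03 in callipyge and 8.07 and 7.90 in normal lambs. Their part in the UCHL1 result was not tested. The neurofilament genes NEFL (mean 4.19) and NEFM (4.26) lay near the bottom of the scale. In whole muscle, a change in the number of cells of a type and a change in RNA per cell cannot be told apart.

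**Figure D2:**
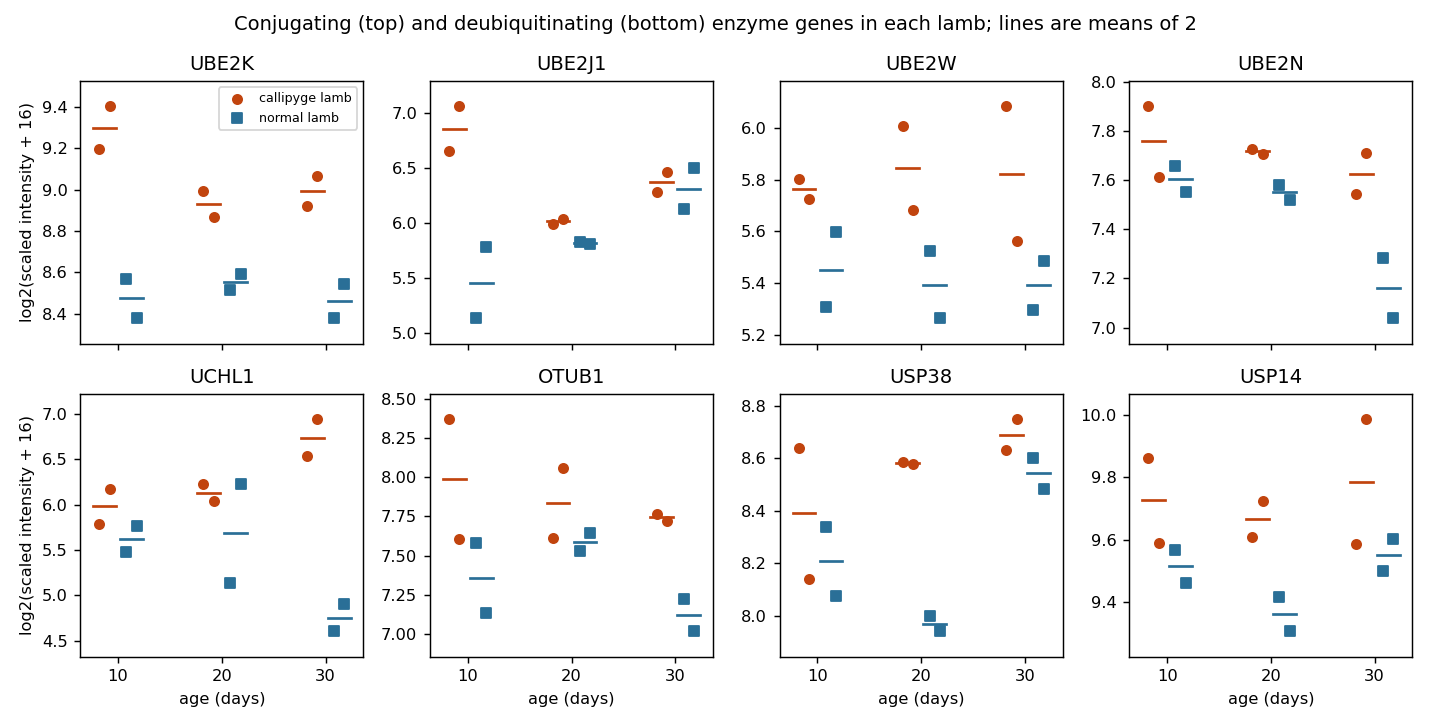
Log2 of the scaled intensity plus 16 in each lamb, by age in days, for 4 conjugating genes (top) and 4 deubiquitinating genes (bottom). Circles are callipyge lambs, squares are normal lambs and lines are means of 2 lambs. The genotypes are apart at all 3 ages for UBE2K, with the widest gap at 10 days for UBE2J1 and at 30 days for UCHL1.

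The conjugating enzymes next to UBE2K did not pass. They are described by role and not by size of difference, starting with the ER-bound and ER-linked enzymes, which serve the removal of misfolded proteins. UBE2J1, a membrane-anchored E2 of that pathway, stood at 0.55 ± 0.15 (adjusted p = 0.113 in limma). Its difference was 1.40 at 10 days, where callipyge lambs read 6.66 and 7.06 and normal lambs 5.14 and 5.78. At 20 and 30 days it was 0.20 and 0.06. Its interaction with age had the smallest p of any tested member and was not called (adjusted p = 0.952 in limma). UBE2J2 stood at 0.05 and UBE2G2 at 0.15. At 10 days their values were 0.39 and -0.14.

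UBE2D enzymes are general E2 partners of many ligases, among them the muscle ligase TRIM63. UBE2D2 stood at 0.30 ± 0.15, UBE2D4 at 0.26 ± 0.11 and UBE2D3 at 0.05 ± 0.09. The UBE2D2 value was 0.15 without callipyge 30 day replicate 2, which read 9.76 against 8.88 to 9.07 in the other callipyge lambs. The UBE2E enzymes, a nearby family with an extended N terminus, lay on the other side: UBE2E3 at -0.16 ± 0.09 and UBE2E1 at -0.10 ± 0.14. UBE2D proteins are close in sequence, so probes may read more than 1 of them, and the UBE2D4 probe set is of the design type that can match several transcripts of a gene.

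UBE2N builds lysine-63 chains, which signal and do not usually lead to the proteasome, together with the inactive partners UBE2V1 and UBE2V2. UBE2N stood at 0.26 ± 0.11, with 5 of 6 callipyge lambs higher than either normal lamb of the same age (adjusted p = 0.363 in limma). On their brightest probe sets its partners stood lower, UBE2V1 at -0.07 ± 0.17 and UBE2V2 at -0.01 ± 0.11. A further probe set of UBE2V2 gave 0.20 ± 0.11. UBE2W, which attaches ubiquitin to the N terminus of proteins, stood at 0.40 ± 0.14, with all 6 callipyge lambs higher than either normal lamb of the same age (adjusted p = 0.285 in limma). That arrangement was met by UBE2K and UBE2W among the 55 members and by 1.84% of all tested probe sets. The reverse, with all 6 lower, was met by 0 members and by 1.47% of all. No such share was taken for 5 of 6 lambs. UBE2N, OTUB1 and USP14, given with that count, were named for their small p for genotype.

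UBE2A and UBE2B are mammalian forms of RAD6, and UBE2B has long been followed in muscle wasting. They stood at 0.12 ± 0.10 and 0.12 ± 0.11. UBE2B had a mean of 11.15 at 10 days, 11.30 at 20 days and 11.12 at 30 days, and its normal lambs of 30 days read 10.69 and 11.36. UBE2G1 stood at -0.03 ± 0.10. The adjusted p of these 3 genes in limma was 0.708 or above.

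Among the rest, UBE2H stood at -0.10, UBE2Q1 at -0.10 and UBE2Z, which takes ubiquitin from the activating enzyme UBA6, at -0.04. UBE2L3, a partner of HECT and RBR ligases, had the lowest value of its class at -0.25 ± 0.19, with lambs of a group differing by 0.38 (residual SD). The E2s of dividing cells gave 0.20 for UBE2C, -0.20 for UBE2S and -0.07 for UBE2T, without a common direction. UBE2F, which carries the ubiquitin-like protein NEDD8, stood at 0.07, and UBE2L6, which carries the interferon-induced ISG15, at -0.10.

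In the deubiquitinating class OTUB1 followed UCHL1. OTUB1, which both cuts lysine-48 chains and holds UBE2N inactive by binding it, stood at 0.50 ± 0.15 (adjusted p = 0.187 in limma). Callipyge lambs ran from 7.61 to 8.37 with a median of 7.75, and normal lambs from 7.01 to 7.65 with a median of 7.37. Only the edges overlapped, and 5 of 6 callipyge lambs were higher than either normal lamb of the same age. Its paralog OTUB2 stood at -0.32 ± 0.22, the lowest value of the class, on a dim probe set with lambs between 4.29 and 5.93. The reading of 4.29 was that of callipyge 20 day replicate 2, and the other callipyge lambs read 5.16 to 5.68. OTUB2 was not followed with that array left out, so its value may rest on this lamb.

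USP14 and UCHL5 trim chains on the proteasome itself. USP14 stood at 0.25 ± 0.10, with 5 of 6 callipyge lambs higher than either normal lamb of the same age (adjusted p = 0.354 in limma), and a further probe set gave 0.28 ± 0.13. UCHL5 stood at -0.11 ± 0.13. UCHL3, the closest relative of UCHL1, stood at 0.14 ± 0.10. USP5, which takes apart free chains, stood at 0.06.

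Other USP genes with an unadjusted p under 0.05 were USP38 at 0.31 ± 0.12, USP10 at 0.28 ± 0.11, USP8 at 0.29 ± 0.13 and USP28 at 0.33 ± 0.15. USP8 acts on receptors at endosomes, and USP10 acts on p53 and in stress granules. Their adjusted p ranged up to 0.421 in limma, and none passed. USP8 had a further probe set at 0.32 ± 0.14, whereas that of USP38 gave -0.12 ± 0.17 and that of USP28 gave 0.06 ± 0.13. USP10 and USP28 gave most at 10 days (0.52 and 0.78) and little at 30 days (0.01 and -0.07), but USP8 gave most at 30 days (0.49).

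Enzymes that act on histones had mixed signs, with USP16 at 0.24, USP3 at -0.08, USP21 at -0.12 and USP22 at -0.20. USP22, of the SAGA coactivator complex, went from 0.37 at 10 days to -0.73 at 30 days (interaction adjusted p = 0.992 in limma). USP12 and USP46, paralogs that share an activating partner, stood at 0.40 ± 0.20 and -0.06 ± 0.11. The related USP11 and USP15 stood at -0.18 and 0.17. USP18, which removes ISG15, stood at -0.13. The remaining members, USP2, USP19, USP30, USP33, USP39, USP42, USP47, USP53, OTUD4 and OTUD5, lay between -0.23 (OTUD4) and 0.14 (USP47). USP39 lacks deubiquitinating activity, so the symbol rule can bring in a gene that does not belong to the class by function.

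The classes did not stand apart in their genotype difference averaged over ages. The median was 0.05 for the 25 conjugating and 0.05 for the 30 deubiquitinating genes, beside -0.01 for all tested probe sets. Of the conjugating genes 13 lay above 0 and 12 below. Of the deubiquitinating genes 17 lay above and 13 below. The range was -0.25 to 0.58 in the first class and -0.32 to 0.93 in the second. With 1 array left out the conjugating median ran from -0.01 (without callipyge 30 day replicate 2) to 0.10 (without callipyge 30 day replicate 1). The deubiquitinating median ran from 0.01 (without callipyge 20 day replicate 2) to 0.07. Without scaling the medians were -0.17 and -0.16, close to the -0.19 of all probe sets, and 7 and 9 genes lay above 0.

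At 10 and 30 days the medians of the classes stood in opposite order. The conjugating median was -0.03, -0.03 and 0.12 at 10, 20 and 30 days, with 12, 12 and 19 of 25 genes above 0. The deubiquitinating median was 0.18, 0.07 and -0.02, with 19, 20 and 14 of 30 genes above 0. All tested probe sets gave -0.01, 0.01 and -0.02. No test was made of this pattern, which was noticed in the data. With 1 array left out the conjugating median at 30 days ran from 0.06 to 0.24 and the deubiquitinating median at 10 days from 0.11 to 0.19. The 30 day conjugating value of 0.24 came without normal 30 day replicate 2, and the conjugating median at 10 days was 0.10 without normal 10 day replicate 2. Without a brightness filter the deubiquitinating median at 10 days was 0.08. Without scaling it was -0.05 at 10 and -0.11 at 30 days, and the conjugating median was -0.23 and 0.04.

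No member was called at a single age in limma, where 0.0666%, 0.0333% and 0.05% of all probe sets were called at 10, 20 and 30 days. At an unadjusted p under 0.05 there were 6, 3 and 9 members, beside 8.82%, 6.15% and 7.6% of all probe sets. The 9 members at 30 days make 16.4%, of which 6 were higher and 3 lower. No interaction of genotype and age was called among members or among all probe sets (0%). At an unadjusted p under 0.05 there were 4 members, or 7.27%, against 4.75% of all. These were UBE2J1, UCHL1, USP22 and USP2.

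**Figure D3:**
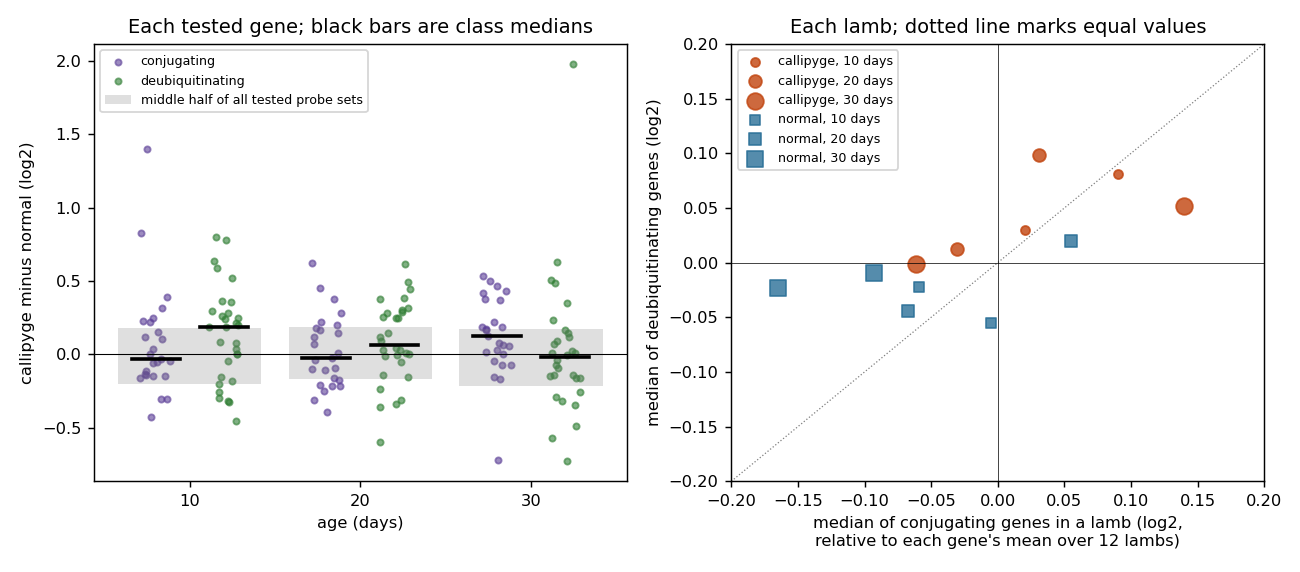
Left, callipyge minus normal on the log2 scale at each age in days for every tested gene, with black bars at class medians and grey bands from the lower to the upper quartile of all tested probe sets. Right, the median of the conjugating and of the deubiquitinating genes in each lamb, relative to each gene's mean over the 12 lambs. Conjugating medians run from -0.03 at 10 days to 0.12 at 30 days, and deubiquitinating medians from 0.18 to -0.02.

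Lamb by lamb the median of the deubiquitinating genes, relative to each gene's own mean, was 0.05 ± 0.04 (SD, n = 6) in callipyge and -0.02 ± 0.03 in normal lambs. That of the conjugating genes was 0.03 ± 0.07 in callipyge and -0.06 ± 0.08 in normal lambs. The conjugating medians ran from -0.16 in normal 30 day replicate 1 to 0.14 in callipyge 30 day replicate 2, and the deubiquitinating medians from -0.06 to 0.10. Over the 4 lambs of an age their SDs were alike at 10 days (0.06 and 0.06) and 20 days (0.06 and 0.06), and were 0.13 and 0.03 at 30 days, a difference that was not tested. Deubiquitinating minus conjugating was 0.01 ± 0.06 in callipyge and 0.03 ± 0.07 in normal lambs, a difference within the spread between lambs. Both classes share arrays, so these medians are not independent of each other.

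With age no member was called in limma. For the change from 10 to 30 days, averaged over genotypes, 0 of 55 members passed, against 1.83% of all probe sets (0.575% higher and 1.26% lower). At an unadjusted p under 0.05 there were 8 members (14.5%), against 16.4% of all, and ordinary least squares also called 0. With 1 array left out this count ran from 3 to 10. Dropping replicate 2 gave 4 for callipyge lambs of 10 days, 3 for normal lambs of 10 days and 5 for normal lambs of 30 days. The median was -0.04 for conjugating and -0.07 for deubiquitinating genes, beside 0.00 for all probe sets, with 11 of 25 and 12 of 30 above 0. Over the brightest probe set of each of 6346 tested genes, chosen as for the members, the median was -0.03, 45.7% lay above 0 and 2.58% were called. Without scaling both medians were above 0, at 0.23 and 0.21, as was that of all probe sets at 0.24. Over the 3 ages together 0 members passed, against 0.849%.

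**Figure D4:**
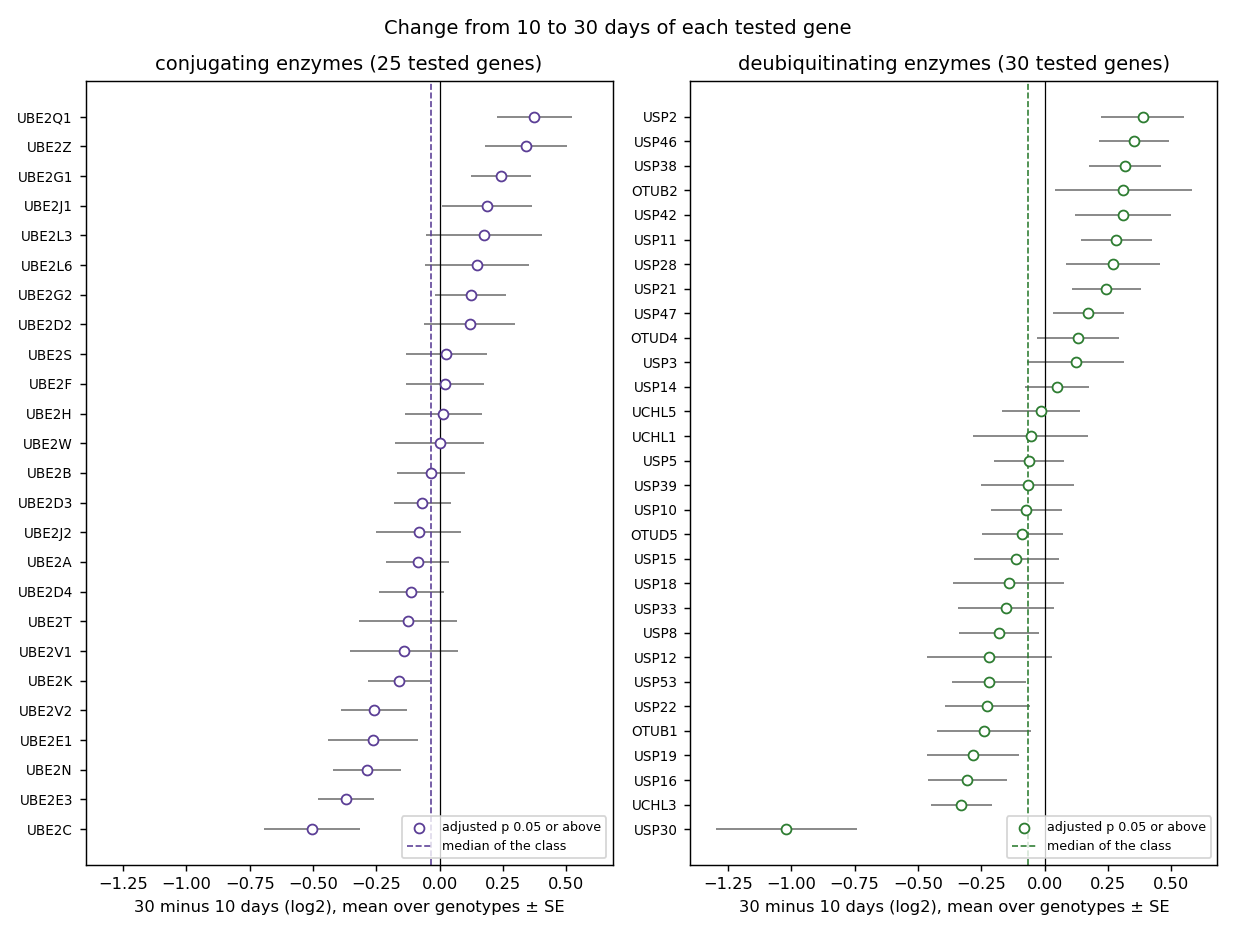
Change from 10 to 30 days on the log2 scale, averaged over genotypes, for each tested conjugating gene (left) and deubiquitinating gene (right), with the standard error. Open points have an adjusted p of 0.05 or above in limma, which all of them have, and dashed lines mark class medians of -0.04 and -0.07. USP30 at -1.02 lies farthest from 0.

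USP30, a deubiquitinating enzyme of the outer mitochondrial membrane that holds back the removal of mitochondria, gave the widest change at -1.02 ± 0.28 (adjusted p = 0.0871 in limma). At 10 days its callipyge lambs read 6.08 and 6.35 and its normal lambs 5.08 and 5.76. At 30 days they read 4.55 and 4.91 against 5.16 and 4.58, so that the ages overlapped in single lambs. The probe set is dim and its lambs differed the most of any tested member within groups (residual SD 0.48). Dropping callipyge replicate 1 or 2 of 20 days, neither of which belongs to the ages compared, left the change at -1.02. Over the fits with 1 array left out that kept the probe set, the change ran from -1.19 to -0.85. Without callipyge replicate 2 of 10 days the probe set fell under the brightness filter. The change was -1.70 with a pseudocount of 1 and -0.48 with one of 64.

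UBE2E3 had the smallest p of the conjugating class, at -0.37 ± 0.11 (adjusted p = 0.116 in limma). Normal lambs of 10 days read 10.98 and 10.97, above the other 10 lambs, which ran from 10.19 to 10.66. The change was -0.67 in normal and -0.07 in callipyge lambs (interaction adjusted p = 0.992 in limma). UBE2C, the E2 that drives exit from mitosis, stood at -0.50 ± 0.19 (adjusted p = 0.209 in limma), and at -0.31 without normal 10 day replicate 2. All 4 tested markers of dividing cells also lay below 0, between -0.41 and -0.28, and 0 were called. The summed level of all 9 such markers on the array, tested or not, was 8.76 to 9.41 at 10 days and 8.08 to 8.92 at 30 days. Its part in the UBE2C value was not tested.

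UBE2Q1 stood at 0.37 ± 0.15, UBE2Z at 0.34 ± 0.16 and UBE2G1 at 0.24 ± 0.12, while UBE2N stood at -0.29 ± 0.13. Without normal 30 day replicate 2 UBE2Q1 stood at 0.23 and UBE2G1 at 0.16, and without callipyge 30 day replicate 2 UBE2G1 stood at 0.14. UCHL3 stood at -0.33 ± 0.12, with lambs from 9.48 to 9.70 at 10 days and from 9.09 to 9.48 at 30 days. USP46, which has been studied at synapses, stood at 0.35 ± 0.14, with 5.86 to 6.30 at 10 days and 6.37 to 6.64 at 30 days. The ages did not overlap for UCHL3, USP46, USP16 and UBE2V2 among the tested members, beside 7.84% of all probe sets. The 4 genes are 7.27% of the 55, near that background. USP46 was higher at 30 days, as were 3.53% of all, and the other 3 were lower, as were 4.31% of all. A further probe set gave a change of 0.01 ± 0.13 for UBE2V2 and of 0.30 ± 0.20 for USP46.

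USP2, a clock-linked enzyme, stood at 0.39 ± 0.16 (adjusted p = 0.264 in limma). Normal lambs read 9.83 and 8.98 at 10 days, 9.28 and 9.36 at 20 days and 10.09 and 10.35 at 30 days. Callipyge lambs stayed between 9.56 and 9.77. The change was 0.82 in normal and -0.05 in callipyge lambs (interaction adjusted p = 0.992 in limma). Over both genotypes it was 0.60 without normal 10 day replicate 1 and 0.17 without normal 10 day replicate 2. USP38 stood at 0.32 ± 0.14, or 0.19 without callipyge 10 day replicate 2, and its further probe set gave -0.03 ± 0.21. USP11 stood at 0.28 ± 0.14. The ISG15 enzymes UBE2L6 and USP18 stood at 0.15 and -0.14, while the 5 tested interferon response genes all lay above 0, between 0.13 and 0.69, with 0 called.

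**Figure D5:**
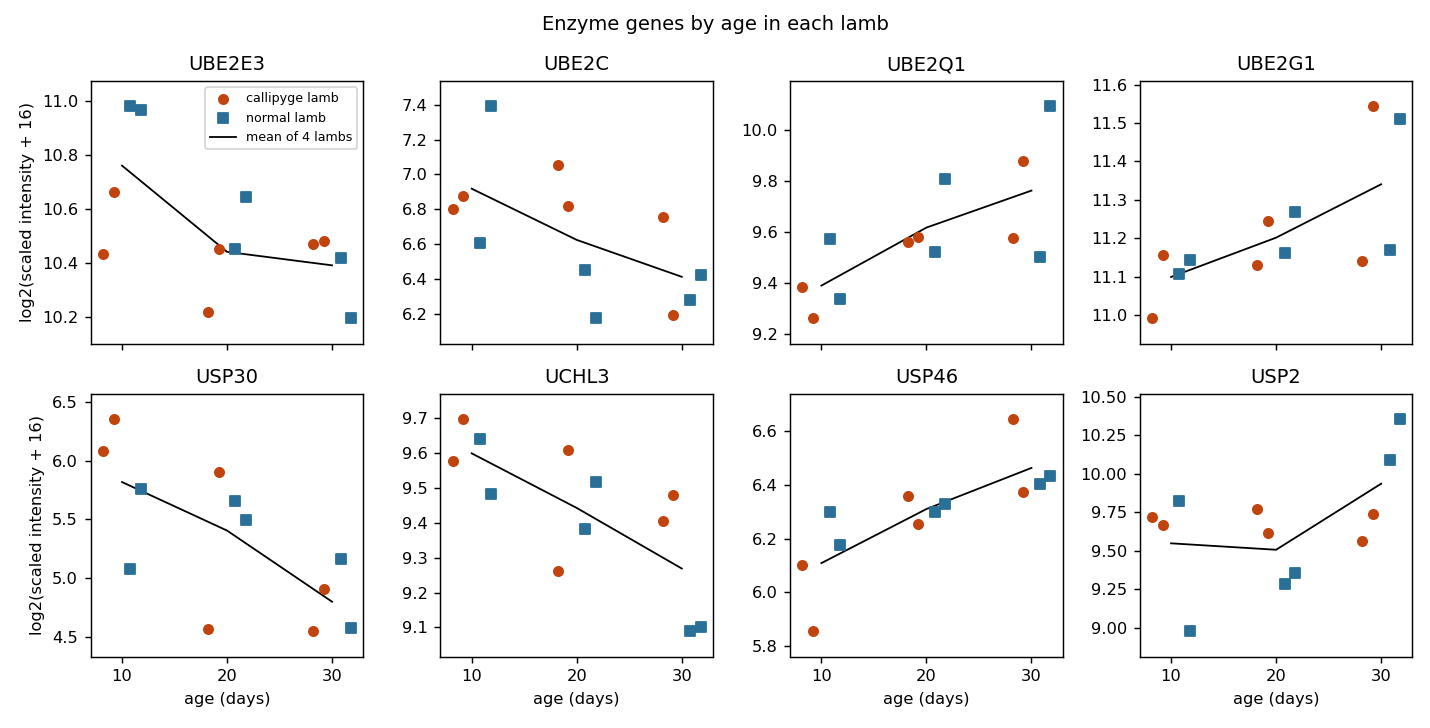
Log2 of the scaled intensity plus 16 in each lamb, by age in days, for the 4 conjugating genes UBE2E3, UBE2C, UBE2Q1 and UBE2G1 (top) and the 4 deubiquitinating genes USP30, UCHL3, USP46 and USP2 (bottom). Circles are callipyge lambs, squares are normal lambs and the line joins the means of 4 lambs. Lambs of 10 and 30 days overlap for most of these genes, and they are apart for UCHL3 and USP46.

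Probe sets of 1 gene did not always move alike. Among the 60 genes, 20 had more than 1 probe set. Of the 24 further probe sets 12 were bright enough to test, and 8 of these had the sign of the brightest one for genotype and 8 for the change with age. UBE2A (0.12 and 0.33), USP14 and USP8 had the same sign for genotype on both, whereas UBE2G2 (0.15 and -0.17), UBE2H (-0.10 and 0.17) and UBE2V2 (-0.01 and 0.20) did not. UBE2K and UCHL1 each had 1 probe set, so neither call could be read on another.

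The rest of the ubiquitin pathway was read through fixed lists. For genotype VCP alone was called, 1 of 91 tested genes (1.1%), near the 0.883% of all probe sets. VCP, the segregase that pulls ubiquitinated proteins out of membranes and complexes, rose by 0.49 ± 0.09 (1.40-fold, adjusted p = 0.0280 in limma). Callipyge lambs read 10.48 and 10.40 at 10 days, 10.29 and 10.22 at 20 days, and 10.54 and 10.46 at 30 days. Normal lambs read 9.65 and 9.94, then 9.79 and 9.92, then 9.99 and 10.19. The groups of 6 did not overlap, and the closest lambs read 10.22 and 10.19. With 1 array dropped the estimate ran from 0.44 to 0.53. The call ended on dropping any callipyge lamb, with an adjusted p in limma of 0.0922 or 0.0651 at 10 days, 0.0904 or 0.0774 at 20 days and 0.05002 or 0.0581 at 30 days for replicate 1 or 2. It also ended on dropping normal replicate 1 of 10 days (0.0801) or normal replicate 1 or 2 of 20 days (0.0917 or 0.0599). Without scaling VCP stood at 0.27 (adjusted p = 0.424). The adjusted p was 0.0524 with no brightness filter, 0.118 with ordinary least squares and 0.0568 when the replicate 2 arrays of 30 days were dropped.

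The other lists held 0 calls for genotype. Of 7 tested E1 enzymes, 5 lay above 0 (median 0.18), with UBA1, the main ubiquitin-activating enzyme, at 0.25 ± 0.11 and MOCS3 at -0.51 ± 0.14 (adjusted p = 0.131 in limma). Of 15 muscle ligases 10 lay above 0 (median 0.05), with TRAF6 at 0.30 and MUL1 at 0.24. Of 26 other ligases 19 lay above 0 (median 0.06), with ARIH2 at 0.44 and FBXW7 at 0.42. Of 17 other deubiquitinating and SUMO-cleaving enzymes 8 lay above 0 (median -0.05), with SENP2 at 0.48 and the proteasome subunit PSMD14 at 0.25. Of 12 ubiquitin-like modifiers and their carriers 5 lay above 0 (median -0.01), with the autophagy genes GABARAPL1 at -0.40 ± 0.11 (adjusted p = 0.124 in limma) and MAP1LC3A at -0.32. Other autophagy genes of that list did not lie as low: GABARAP stood at 0.12, GABARAPL2 at 0.15, ATG12 at 0.08, MAP1LC3B at 0.003 and ATG3 at -0.005. Of 14 shuttle and segregase genes 9 lay above 0 (median 0.07), with NSFL1C, a VCP cofactor, at 0.30. The median of all probe sets was -0.01.

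With age 2 of the 91 tested genes of these lists were called (2.2%), 1 in each direction, near the 1.83% of all probe sets. ZRANB1, a deubiquitinating enzyme of the OTU family outside the symbol rule, rose by 0.92 ± 0.20 from 10 to 30 days (1.89-fold, adjusted p = 0.0381 in limma), from 7.11 ± 0.42 (SD, n = 4) to 8.03 ± 0.31. Its further probe sets gave 0.67 (adjusted p = 0.0634) and 0.58 (0.125). UFC1, the E2 of the ubiquitin-like protein UFM1, fell by 0.59 ± 0.13 (adjusted p = 0.0379), from 8.38 ± 0.24 to 7.79 ± 0.16. Dropping any of the 12 arrays ended the UFC1 call (adjusted p = 0.0553 to 0.149 in limma). The ZRANB1 call ended on dropping callipyge replicate 2 of 10 days (0.145) or replicate 1 or 2 of 30 days (0.0748 or 0.0920). It also ended on dropping normal replicate 1 or 2 of 10 days (0.130 or 0.0787) or normal replicate 2 of 30 days (0.117). Ordinary least squares gave 0.170 for ZRANB1 and 0.0633 for UFC1, and no brightness filter gave 0.0742 and 0.0519. Median centring gave UFC1 an adjusted p of 0.0525, and array weights gave ZRANB1 0.0518, both in limma. When the replicate 2 arrays of 30 days were dropped, the change was 0.84 for ZRANB1 and -0.60 for UFC1. Without scaling UFC1 stood at -0.31 (adjusted p = 0.424).

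For the change with age the other named list genes did not pass in limma. In the muscle ligase list ASB2 stood at 0.61 ± 0.18, FBXL4 at 0.84 ± 0.27 and FBXO40 at 0.38 ± 0.15, and 12 of 15 lay above 0 (median 0.14). In the list of other ligases FBXW7 stood at -0.74 ± 0.22, ARIH2 at 0.60 ± 0.18 and CUL1 at 0.50 ± 0.18. Shuttle genes lay mostly above 0, 11 of 14 (median 0.23), with UBQLN4 at 0.51, UBE4B at 0.52 and RAD23B at 0.38. All 7 tested E1 enzymes lay below 0 (median -0.09). MINDY2 stood at 0.71, PSMD14 at -0.37, MAP1LC3B at 0.43 and ATG3 at -0.42.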

How the data were processed

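Total RNA of longissimus dorsi from 12 lambs was labelled with biotin and hybridised to bovine arrays. Per the labels' processing notes, the authors made the deposited intensities, 1 linear value per probe set, with MAS5 in GCOS. The version, scaling target and detection calls are not given in the sources used here. Sheep RNA was read by cattle probes, and precision is limited by having 12 arrays. No sequence is shown.

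The 2% trimmed means differed 1.90-fold, so each array was scaled to their mean (79.2) and log2(value + 16) taken. The 112 control probe sets and those with a mean under the median (5.25) were left out, leaving 12008. Symbols came from the array's annotation. All 60 members' symbols also occur in sheep RefSeq (ARS-UI_Ramb_v3.0). limma 3.58.1 in R 4.3.3 fitted 6 group means with a trended shared variance and Benjamini-Hochberg adjustment over 12008 at 0.05. Adjusted p values in the text come from limma unless ordinary least squares is named. p-values set a difference against the spread between lambs of a group. In limma this spread is drawn toward a trend over all tested probe sets (prior degrees of freedom 6.93, residual 6). Figures used matplotlib 3.10.9 in python 3.11.15. On data simulated with independent normal noise the model recovered 77% of 2-fold genotype and 63% of 2-fold age changes. The false share of calls was 4.94% and 5.97%, and for 4-fold changes it was 10.8% and 1.02%. Changes under 2-fold, such as those of UBE2K and UCHL1, were not simulated.

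Named members were those called, the 6 of each class with the smallest p for genotype and for age, the 4 brightest of each class, and named subfamilies. Remaining members are named for completeness. For pathway lists they were genes called, or else the 2 with the smallest p for genotype, and up to 3 for age. Members and lists were chosen with earlier results of these data known. Lists and class scores have no test. Alternatives were another threshold (0.10), pseudocounts, filters, normalizations, variance models, probe set choices, a replicate block and arrays left out.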

Additional observations from a re-analysis of the deposited data

How the results depend on the processing

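The count of 2 members called for genotype was 1 with no filter, 1 with a filter at the 75th percentile, 1 with no scaling and 0 with ordinary least squares. It also fell when the replicate 2 arrays of 30 days, which had the lowest mean correlations with the others, were dropped. The same was so in some of the fits with 1 array left out. For the change from 10 to 30 days the count of 0 was 1 at a threshold of 0.10 and 0 to 1 with 1 array left out. With no scaling the medians of conjugating and deubiquitinating genes were -0.17 and -0.16 for genotype and 0.23 and 0.21 for age. The deubiquitinating genotype median was 0.10 with a filter at the 75th percentile and 0.0070 to 0.0668 with 1 array left out. The deubiquitinating age median was -0.0652 to -0.000501 with 1 array left out. The conjugating age median was -0.18 when those arrays were dropped and -0.10 to 0.02 with 1 array left out, and the conjugating genotype median was -0.01 to 0.10. The cause of these changes was not tested. Replicate numbers showed little sign of pairing the lambs: over 15 pairs of groups the correlation of deviations was -0.06 to 0.11, over 0.1 in 1. With 2 lambs per group a pairing could be missed. With a replicate block the count for genotype remained 2, with an adjusted p in limma of 0.0243 for UBE2K and 0.0206 for UCHL1. For the genes followed by name under these alternatives, which were called or had a small p, the difference followed did not change direction. Other members did change direction. With no scaling the genes above 0 for genotype went from 13 to 7 (conjugating) and from 17 to 9 (deubiquitinating). For the change from 10 to 30 days, 11 conjugating and 12 deubiquitinating genes lay above 0. Under the alternatives these counts reached 21 and 25. Replicate arrays are 2 per group, so a difference at a single age has a standard error near 0.22 to 0.23 for a typical member.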
